A study of Mus musculus with 13 samples.

Results

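The DNAJ proteins, also called HSP40 proteins, are the co-chaperones that hand unfolded proteins to HSP70. Their transcripts were followed in microglia sorted from mice after repeated social defeat. Every gene of the deposited table whose symbol begins with Dnaja, Dnajb or Dnajc and a number was taken, pseudogenes excepted. This gave 41 of the 14518 genes, all of them found in GENCODE M21, and 40 were kept by a filter on low counts.

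The comparison was of RSD with CON. RSD mice were C57BL/6 animals of 2 months that went through 6 cycles of repeated social defeat, a stress in which a mouse is exposed again and again to an aggressor, and their cells were taken 24 days after the last cycle (n = 7, sample numbers 2, 7, 8, 10, 11, 12 and 13). CON mice were control animals of the same strain and age (n = 6, sample numbers 1, 4, 5, 17, 18 and 19). Cells were enriched on Percoll and sorted as CD11b-positive with intermediate CD45, and no transgene is named for either group. The labels do not say whether each sample was a separate animal, so the p-values measure only the spread between samples, which may be in part technical.

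A DNAJ protein carries a J domain that triggers ATP hydrolysis by HSP70, so that HSP70 closes on its client. Classes A and B resemble the bacterial DnaJ protein in more of their domains, while class C shares only the J domain and places HSP70 at particular sites such as the ribosome, the mitochondrial import channel or clathrin coats. Some members are made at all times, some are induced by heat shock factor 1 when proteins unfold in the cytosol, and others belong to the unfolded protein response of the endoplasmic reticulum.

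The start regions shown are those of the heat-inducible members Dnaja1, Dnaja4, Dnajb1 and Dnajb4 and of other members with a matched motif. Windows of 250 bases before each RefSeq gene start (GRCm38.p6) were searched on both strands for a pair of heat shock factor units, written GAANNTTC or TTCNNGAA, each of which is its own reverse complement. Of 41 members 35 had a window. The pair was found in 7 of 48 member windows (14.6%), belonging to 6 members, against 12.8% of all 32851 windows. Capitals mark the matched units in the lines below, which run 5′ to 3′ on the gene's strand.
Dnaja1, chr4:40722333-40722362, plus strand: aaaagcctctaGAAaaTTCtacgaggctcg
Dnaja4, chr9:54699458-54699487, plus strand: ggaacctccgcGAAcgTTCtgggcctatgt
Dnaja4, chr9:54699496-54699525, plus strand: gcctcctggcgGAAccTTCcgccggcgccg
Dnajb4, chr3:152193846-152193870, minus strand: ttcgttcgctgTTCtaGAAagtaca
Dnajb6, chr5:29735841-29735870, plus strand: ctcagctccgaGAAtcTTCcgGAAcgctag
Dnajc10, chr2:80315273-80315302, plus strand: aacaattttatTTCtaGAAaactttaatta
Dnajc27, chr12:4082350-4082379, plus strand: cacccatcggtGAAgaTTCcaggaaaaaaa
The Dnajb6 site holds 3 alternating units in a row (GAA, TTC and GAA, or TTC, GAA and TTC, with any 2 bases between neighbours), which contains the pair and occurred in 0.466% of all windows. The window of Dnajb1, the most abundant member, held 7 single GAA or TTC units, in capitals in the next line, and no pair in these letters.
Dnajb1, chr8:83607925-83608174, plus strand: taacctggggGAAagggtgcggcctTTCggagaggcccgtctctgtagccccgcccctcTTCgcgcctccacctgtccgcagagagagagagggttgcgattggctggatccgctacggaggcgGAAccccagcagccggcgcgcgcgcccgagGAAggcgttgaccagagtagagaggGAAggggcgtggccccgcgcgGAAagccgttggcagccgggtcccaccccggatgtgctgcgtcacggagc
An endoplasmic reticulum stress element, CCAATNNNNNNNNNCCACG on either strand, occurred in 0.113% of all windows and in 1 member.
Dnajc3, chr14:118937822-118937851, plus strand: cacaaCCAATcagcgccaaCCACGacccgg
These matches describe letters within the windows and were not tested for binding.

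Depth was 9.76 to 12.27 M reads a library, on average 10.83 ± 0.826 M for RSD and 11.32 ± 0.978 M for CON (SD, n = 7 and 6; exact two-sided permutation p = 0.346). Values below are normalized reads, that is reads divided by the size factor of the library. The 10 microglial marker genes summed to 305624 to 323602 normalized reads in RSD libraries and 310503 to 324844 in CON libraries other than CON 18, which held 201252. Border macrophage markers (9 genes, of which Lyve1 and Cd209f were not analysed here) summed to 4899 to 8564 in RSD libraries, 33130 in CON 18 and 7354 to 8372 in the other CON libraries. The median Spearman correlation of a library with the others, over genes, was 0.975 for RSD 8, 0.948 for CON 18 and 0.988 to 0.992 for the other 11 libraries. In bulk RNA such as this, fewer cells of a type and less RNA per cell cannot be told apart. Values without CON 18 or RSD 8 are therefore given beside the results that those libraries move.

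Levels of the family differed over several orders of magnitude. Per kilobase of exon, Dnajb1, the main heat-inducible partner of HSP70 in the cytosol, had the highest mean level of the 41 members, at 1480 normalized reads per kb. Dnajb9, which represses the stress sensor IRE1 in the endoplasmic reticulum, followed at 616, and Dnajc7, which links HSP70 with HSP90, at 406. Dnaja1 stood at 402, Dnajc3 at 334 and Dnajc13, which acts at endosomes, at 309 normalized reads per kb. The HSP70 genes measured in this way were higher per kilobase. They stood at 7530 for the inducible Hspa1b, 7140 for Hspa1a, 5120 for the constitutive Hspa8 and 2940 for Hspa5, the HSP70 of the endoplasmic reticulum. Other HSP70 genes were not measured per kilobase. Dnajc6, the clathrin uncoating factor auxilin of neurons, was lowest at 0.378 per kb, with 0 to 2.1 normalized reads in RSD libraries and 0 to 6.8 in CON libraries, and it did not pass the filter.

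The family as a whole took 0.264% to 0.344% of the reads in RSD libraries and 0.23% to 0.305% in CON libraries. The lowest shares, 0.23%, 0.23% and 0.233%, were those of CON 1, 4 and 5, while CON 17, 18 and 19 lay within the RSD range at 0.3%, 0.276% and 0.305%. Most of that difference lay in the 4 heat-inducible members. They summed to 7225 to 15086 normalized reads in RSD libraries, against 4339, 4420 and 5196 in CON 4, 5 and 1 and 8154, 11406 and 12319 in CON 18, 17 and 19. All other members together summed to 21530 to 27376 in RSD libraries. They summed to 20412 to 20804 in CON 1, 4 and 5 and 22561 to 22799 in CON 17, 18 and 19. CON 1, 4 and 5 were thus below every RSD library in these members too. The heat-inducible members thus made up 25% to 40.3% of the family's reads in RSD and 17.3% to 35.3% in CON.

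**Figure D1:**
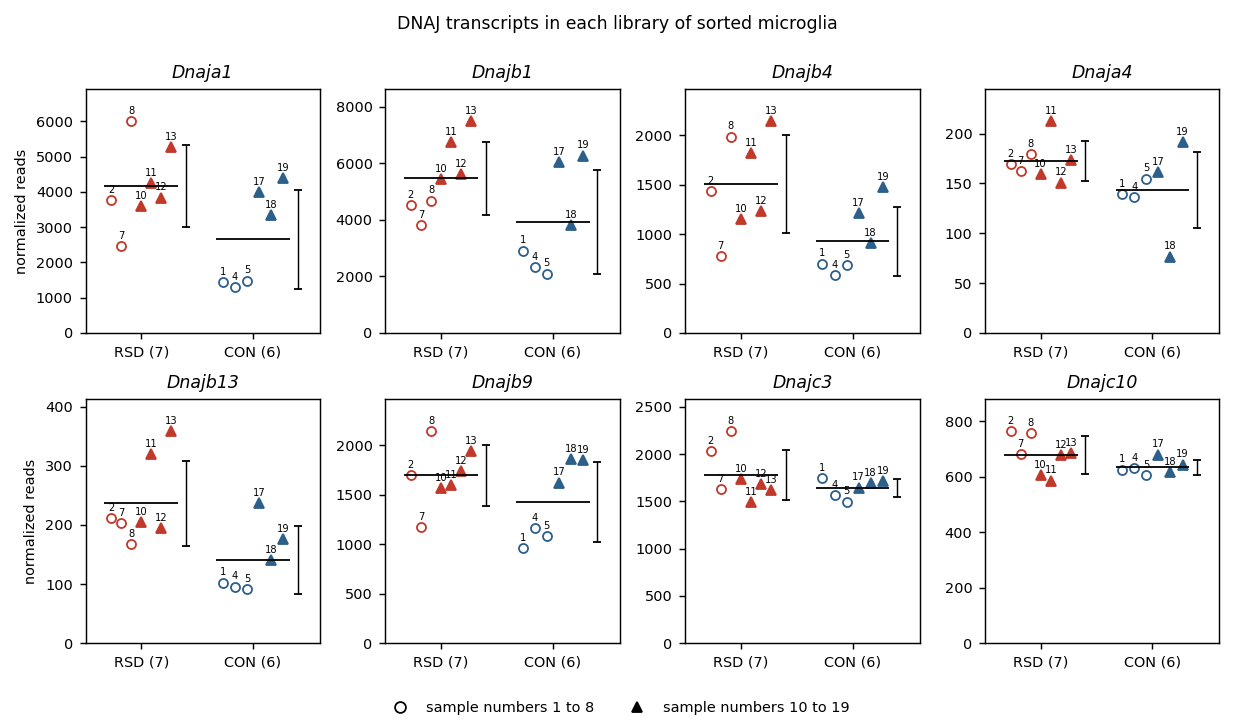
Normalized reads (y axis, linear, from 0) of 8 members in each RSD library (left, red) and each CON library (right, blue), with the sample number beside each point, a line at the group mean and a bar of 1 SD. Open circles are sample numbers 1 to 8 and triangles are numbers 10 to 19; for Dnaja1 all RSD libraries lie at 2471 or more, and the circles CON 1, 4 and 5 lie at 1299 to 1481.

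Dnaja1 (chr4:40722150-40737149, plus strand, GRCm38), a class A co-chaperone of the cytosol, had 3776, 2471 and 6011 normalized reads in RSD 2, 7 and 8 and 3592, 4239, 3838 and 5264 in RSD 10 to 13. In CON 1, 4 and 5 it had 1443, 1299 and 1481, and in CON 17, 18 and 19 it had 3984, 3343 and 4381. The groups overlapped, because CON 17, 18 and 19 lay among the RSD values and CON 1, 4 and 5 below all of them. RSD averaged 4170 ± 1160 and CON 2655 ± 1407 normalized reads (SD, n = 7 and 6), and the log2 difference was 0.79 ± 0.33 (SE, limma on log2(value + 1); adjusted p = 0.821).

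Dnajb1 (chr8:83608193-83612653, plus strand), whose protein drives HSP70 refolding and disaggregation, divided the controls in the same way. It had 4522, 3815 and 4682 normalized reads in RSD 2, 7 and 8 and 5450, 6758, 5611 and 7502 in RSD 10 to 13. CON 1, 4 and 5 had 2912, 2316 and 2100, and CON 17, 18 and 19 had 6047, 3822 and 6275. Again CON 1, 4 and 5 were below every RSD library and the other 3 controls were not. Unlike for Dnaja1, RSD 10 to 13 also lay above RSD 2, 7 and 8. The log2 difference was 0.58 ± 0.27 (SE; limma adjusted p = 0.821).

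Dnajb4 (chr3:152178511-152210302, minus strand), a close relative of Dnajb1, had 1436, 776.6 and 1987 normalized reads in RSD 2, 7 and 8 and 1153, 1820, 1229 and 2146 in RSD 10 to 13. In CON 1, 4 and 5 it had 701.9, 588.1 and 683.1, and in CON 17, 18 and 19 it had 1213, 911.7 and 1472. RSD 8, 11 and 13 exceeded every CON library, and RSD 7 lay a little above CON 1. The log2 difference was 0.70 ± 0.27 (SE; limma adjusted p = 0.821).

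Dnaja4 (chr9:54698873-54716315, plus strand), the least abundant of the heat-inducible members, ranged over 150.8 to 212.8 normalized reads in RSD (median 169.7) and 76.6 to 191.4 in CON (median 147). The lowest value was that of CON 18, and the log2 difference of 0.31 ± 0.17 became 0.14 without it. Dnaja4 shares 1581 exon bases with Wdr61 on the other strand. Dnaja1 shares 608 with Smu1 and 249 with the noncoding gene Gm6297, also on the other strand. Whether reads were counted by strand is not given in the sources used here, so reads from such pairs cannot be told apart. The same limit holds for other members. Of the 41, 16 share exon bases with another gene, and 5 of them do so on the same strand, such as Dnaja3 with Vasn. Smu1 averaged 495.3 ± 46.5 normalized reads over the RSD libraries and 461.8 ± 37.7 over the CON libraries. For Wdr61 the averages were 175.7 ± 12.3 over RSD and 163.5 ± 15.4 over CON libraries.

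Dnajb13 encodes a radial spoke protein of cilia and sperm tails and had the smallest p of the family. It had 211.5, 202.6 and 168.1 normalized reads in RSD 2, 7 and 8 and 204.7, 319.6, 194.2 and 359 in RSD 10 to 13. CON 1, 4 and 5 had 102.5, 95.5 and 91.8, and CON 17, 18 and 19 had 237.5, 140.9 and 176. The groups overlapped through CON 17 and 19, and only RSD 11 and 13 exceeded every CON library. RSD averaged 237.1 ± 72.1 and CON 140.7 ± 57.4 normalized reads, and the log2 difference was 0.79 ± 0.23 (SE; limma adjusted p = 0.821).

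Few markers of ciliated cells could be set beside it. Of 7 ependymal and ciliated markers, 2 had values and 0 passed the filter, while Foxj1, Ccdc153, Tmem212, Rsph1 and Spag16 were not analysed here. The 2 with values summed to 1.1 to 10.6 normalized reads in RSD libraries and 5.8 to 11.7 in CON libraries. Dnajb13 shares 305 exon bases with Ucp2, a mitochondrial carrier, on the other strand. Ucp2 averaged 5993 ± 1270 normalized reads over the RSD libraries and 5303 ± 949 over the CON libraries. RSD 13, RSD 11 and CON 17 had the 3 highest values of both Dnajb13 and Ucp2 (7789, 6978 and 6968 normalized reads of Ucp2); its part in the Dnajb13 values was not tested.

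In the comparison of RSD with CON, 0 of 40 members and 0 of 12496 genes (0%) passed an adjusted p of 0.05 in limma. At an unadjusted p under 0.05 there were 5 of 40 members (12.5%), against 4% of all genes. Of them 4 were higher in RSD, namely Dnajb13, Dnajb4, Dnaja1 and Dnajb1 (2.02% of genes were), and 1, Dnajb3, was lower (1.98% of genes were). edgeR's quasi-likelihood test called 0 genes as well, with 4.81% at an unadjusted p under 0.05. There Dnajb13 and Dnajb4 were higher (1.92% of genes were) and Dnajb3 lower (2.89% of genes were). DESeq2 called 2 genes (0.016%) and 0 members. A positive log2 difference was found for 29 of 40 members, against 51.4% of all genes, and the median was 0.08 over the members and 0.01 over all genes. Without RSD 8 the median over members was 0.046, with 29 positive. It was 0.01 against CON 17 and 19 alone, with 20 of 40 positive (50.4% of all genes were), and -0.03 within numbers 10 to 19 without CON 18, with 15 of 40 positive (49.8% of all genes were). For 0 members did the groups separate fully, as they did for 0.032% of genes in each direction. Without CON 18 and RSD 8, Dnajb13 alone was left on the higher side at an unadjusted p under 0.05, against 2.46% of genes, and Dnajb3 on the lower side, against 2.43%. The number of members on the higher side also depended on single libraries: it was 1 without CON 4 or without RSD 8, and 2 without CON 1, CON 5, RSD 11 or RSD 13.

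**Figure D2:**
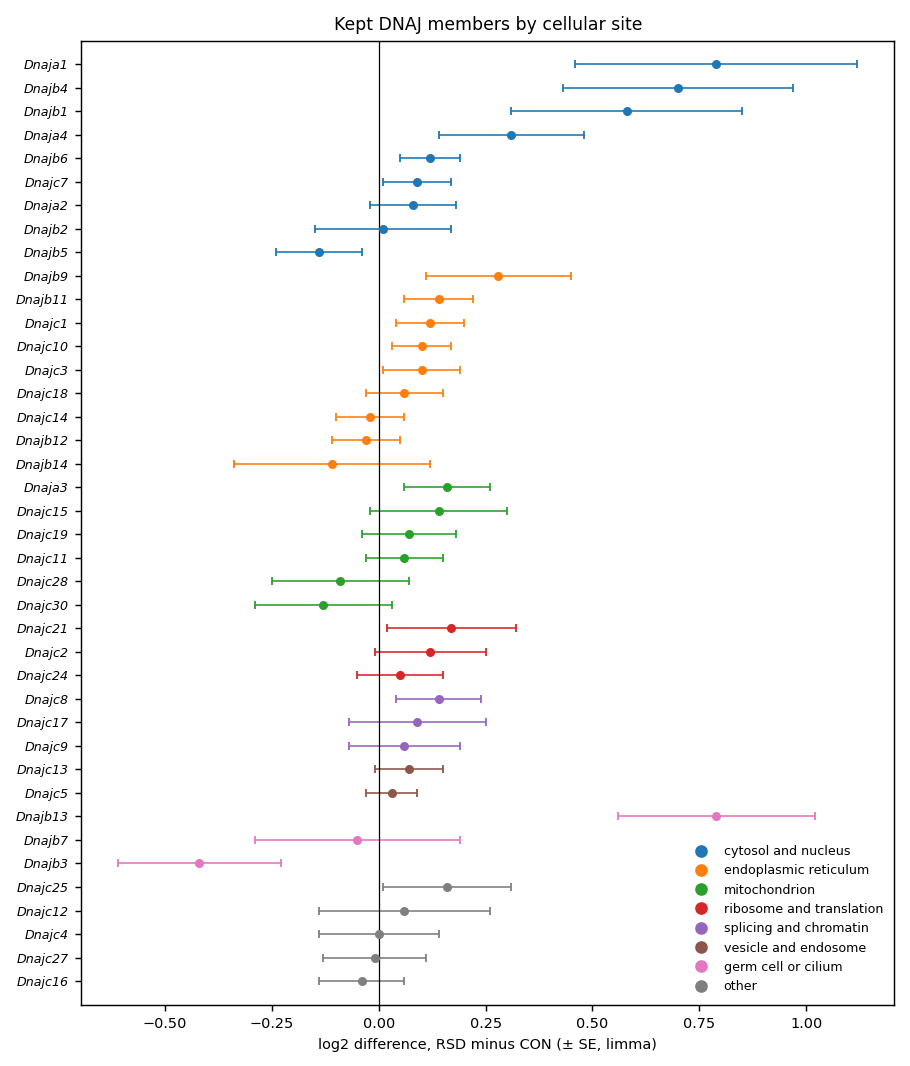
Log2 difference of RSD minus CON (x axis) with its SE for the 40 kept members, ordered and coloured by the site where the protein acts. Dnaja1, Dnajb13, Dnajb4 and Dnajb1 lie between 0.58 and 0.79, and every other member lies between -0.42 and 0.31.

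By role, the 4 heat-inducible members were all positive with a median log2 difference of 0.64. The other cytosolic and nuclear members were closer to 0: Dnajb6, which keeps polyglutamine proteins soluble, at 0.12 ± 0.07, Dnajc7 at 0.09 ± 0.08, the constitutive Dnaja2 at 0.08 ± 0.10, Dnajb2 at 0.01 ± 0.16 and Dnajb5 at -0.14 ± 0.10. Without RSD 8 these were 0.07 for Dnajb6, 0.03 for Dnajc7, 0.01 for Dnaja2, 0.15 for Dnajb2 and -0.06 for Dnajb5. Dnajb5 ranged over 152.2 to 237.8 normalized reads in RSD (median 220.9) and 207.3 to 245.8 in CON (median 231.7), and its lowest value was that of RSD 8.

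The 9 members of the endoplasmic reticulum had a median of 0.10, with 6 positive. Among them the 4 targets of the unfolded protein response had a median of 0.12. Dnajb9 had 1701, 1173 and 2145 normalized reads in RSD 2, 7 and 8 and 1571, 1597, 1739 and 1944 in RSD 10 to 13. In CON 1, 4 and 5 it had 958.9, 1165 and 1085, and in CON 17, 18 and 19 it had 1624, 1862 and 1853. CON 1, 4 and 5 were again below every RSD library, RSD 7 by a small margin, and the log2 difference was 0.28 ± 0.17. It was 0.37 ± 0.16 without CON 18 and 0.22 ± 0.18 without RSD 8.

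The other targets did not share this order. Dnajc3, an inhibitor of the kinase PERK and a co-chaperone of Hspa5, ranged over 1494 to 2245 normalized reads in RSD (median 1681) and 1498 to 1743 in CON (median 1670). Dnajc10, a reductase of misfolded disulfides, ranged over 586.3 to 764.7 in RSD (median 681.6) and 606.2 to 679.7 in CON (median 628.1). Dnajb11, a soluble co-chaperone of Hspa5, ranged over 515.7 to 734.2 in RSD (median 560.1) and 495 to 590.4 in CON (median 516.3). Their log2 differences were 0.10 ± 0.09, 0.10 ± 0.07 and 0.14 ± 0.08, each with overlapping groups and a limma adjusted p of 0.821. Without RSD 8 they were 0.04 for Dnajc3, 0.07 for Dnajc10 and 0.08 for Dnajb11. Dnajb14, which acts with HSP70 at the membrane of the endoplasmic reticulum, ranged over 326.8 to 473.5 in RSD (median 351.2) and 321 to 992.8 in CON (median 334.6). The CON maximum was that of CON 18, and the log2 difference of -0.11 ± 0.23 became 0.15 without that library.

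The 6 mitochondrial members had a median of 0.06, with 4 positive. Dnaja3, the mitochondrial partner of the HSP70 Hspa9, ranged over 309.8 to 387.6 normalized reads in RSD (median 341) and 254.7 to 354.3 in CON (median 319.4). Its log2 difference was 0.16 ± 0.10. Dnajc15 and Dnajc19, which sit at the import motor of the inner membrane, were at 0.14 ± 0.16 and 0.07 ± 0.11, and Dnajc11, a partner of the cristae complex, at 0.06 ± 0.09. Without RSD 8 these were 0.06 for Dnajc15, -0.01 for Dnajc19 and 0.09 for Dnajc11. Dnajc30 ranged over 54.3 to 97.7 in RSD (median 91.1) and 63.1 to 106.4 in CON (median 92.9), and its log2 difference was -0.13 ± 0.16, or -0.04 without RSD 8. Dnajc28 ranged over 389.9 to 513.7 in RSD (median 407.9) and 371 to 845.2 in CON (median 411.6), where CON 18 was the maximum, and its difference of -0.09 ± 0.16 became 0.09 without it.

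The 3 members of the ribosome and translation had positive differences that were smaller without RSD 8, with Dnajc21, a factor of large subunit assembly, at 0.17 ± 0.15, Dnajc2, the ribosome-bound partner of HSP70, at 0.12 ± 0.13 and Dnajc24, which acts in diphthamide synthesis, at 0.05 ± 0.10. Without RSD 8 they were 0.05 for Dnajc21, 0.00 for Dnajc2 and 0.00 for Dnajc24. Without both CON 18 and RSD 8, and also within numbers 10 to 19, 1 of the 3 was positive, with medians of -0.01 and -0.14. The spliceosomal Dnajc8 stood at 0.14 ± 0.10, Dnajc17 at 0.09 ± 0.16 and the histone chaperone Dnajc9 at 0.06 ± 0.13, which without RSD 8 were 0.06, 0.04 and -0.01. Without CON 18, Dnajc17 stood at 0.22 ± 0.13. Dnajc13 of endosomes stood at 0.07 ± 0.08, or 0.01 without RSD 8, and Dnajc5, the vesicle protein also known as cysteine string protein, at 0.03 ± 0.06. Dnajb3, known from testis, ranged over 25.9 to 50 normalized reads in RSD (median 36.4) and 33.3 to 63.1 in CON (median 51.6), and RSD 2 and 12 were below every CON library. Its log2 difference was -0.42 ± 0.19. Dnajb7, another germ cell member, was at -0.05 ± 0.24, or -0.15 without RSD 8 and -0.23 without CON 18. The members with no assigned site lay between -0.04 and 0.16 (the highest, Dnajc25, stood at 0.05 without RSD 8), and of these Dnajc16 ranged over 541.6 to 870.3 normalized reads in RSD (median 765.9) and 627.7 to 830.2 in CON (median 781).

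The controls divided by sample number, and what the numbers stand for is not given in the labels. CON 17, 18 and 19 exceeded CON 1, 4 and 5 without overlap for 8 of 40 members (20%), against 11.1% of genes. These were Dnaja1, Dnaja2, Dnajb1, Dnajb4, Dnajb9, Dnajb13, Dnajc2 and Dnajc13. Dnajb11 and Dnajc16 (5% of members) were lower without overlap, against 10.6% of genes. The mean of CON 17 and 19 was 2.97-fold that of CON 1, 4 and 5 for Dnaja1, 2.52-fold for Dnajb1, 2.14-fold for Dnajb13, 2.04-fold for Dnajb4 and 1.63-fold for Dnajb9. Among RSD libraries, the mean of RSD 10 to 13 was 1.46-fold that of RSD 2, 7 and 8 for Dnajb1. It was 1.39-fold for Dnajb13, 1.13-fold for Dnajb4, 1.04-fold for Dnaja1 and 1.02-fold for Dnajb9. Sample numbers 1 to 8 (RSD 2, 7 and 8; CON 1, 4 and 5) and 10 to 19 (RSD 10 to 13; CON 17, 18 and 19) were therefore also compared within themselves. With the range of the numbers as a covariate over all libraries, Dnaja1, Dnajb1, Dnajb4 and Dnajb13 were higher at an unadjusted p under 0.05 (3.1% of genes were), Dnajb3 was lower (2.76% of genes were), and limma again called 0 genes (0%). In that fit Dnajb13 stood at 0.74 ± 0.17 and Dnajb4 at 0.67 ± 0.23, each with a limma adjusted p of 0.701.

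**Figure D3:**
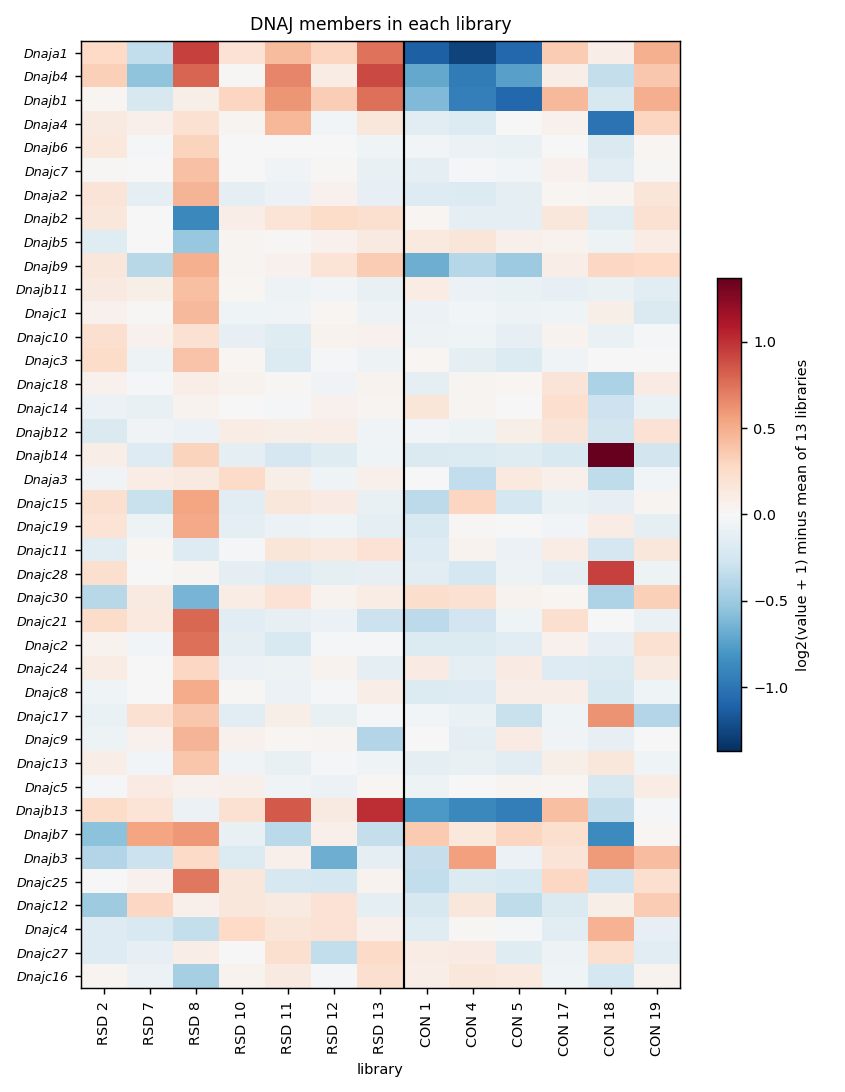
Log2(value + 1) of the 40 kept members (rows, grouped by site of action) minus the mean over all 13 libraries, with RSD libraries left of the black line and CON libraries right of it. Dnaja1, Dnajb4, Dnajb1 and Dnajb13 are low in CON 1, 4 and 5, Dnajb14 and Dnajc28 are high in CON 18 (992.8 and 845.2 normalized reads), and RSD 8 is high for many members.

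Within numbers 1 to 8, RSD exceeded CON at an unadjusted p under 0.05 for 11 of 40 members (27.5%), against 12% of genes. They were Dnaja1, Dnaja2, Dnajb1, Dnajb4, Dnajb9, Dnajb13, Dnajc2, Dnajc10, Dnajc13, Dnajc21 and Dnajc25. Dnajb5 was lower, as were 10.2% of genes. The 3 RSD libraries lay above the 3 CON libraries for 16 of 40 members (40%), against 16.2% of genes. They lay below them for Dnajb5, Dnajc4 and Dnajc16 (7.5% of members), against 14.3% of genes. The log2 difference was 1.44 ± 0.26 for Dnaja1, 0.99 ± 0.29 for Dnajb4, 0.99 ± 0.15 for Dnajb13 and 0.84 ± 0.14 for Dnajb1, each with a limma adjusted p of 0.204, and 0 genes passed.

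RSD 8 carried much of the breadth of this result. Without it 7 of 40 members (17.5%) were higher at an unadjusted p under 0.05 (9.6% of genes were). On the lower side there were 0 members (8.17% of genes were), and 78 genes were called (0.614%). The median over members was 0.11 in place of 0.23. Dnajb13 passed over all genes (log2 1.09 ± 0.15, limma adjusted p = 0.00161). That fit, chosen after seeing the data, held only RSD 2 and 7 against CON 1, 4 and 5. The removed RSD 8 had the lowest Dnajb13 value of the RSD libraries (168.1 normalized reads, against 211.5 in RSD 2 and 202.6 in RSD 7). In the same fit Dnaja1 stood at 1.12 ± 0.20 and Dnajb1 at 0.78 ± 0.14. Member values in RSD 2 and RSD 8, but not RSD 7, moved with the base composition of the members' transcripts. Over the 40 members the Spearman correlation of a library's deviation with transcript GC was -0.50 for RSD 2, -0.03 for RSD 7 and -0.72 for RSD 8, against 0.28 for CON 1, 0.27 for CON 4 and 0.07 for CON 5. In the range 10 to 19 it ran from -0.19 for CON 18 to 0.43 for RSD 11. For the RSD minus CON differences it was -0.61 in the range 1 to 8 and 0.37 in the range 10 to 19. These correlations are over genes of shared libraries and are given as descriptions, and the part of base composition in the results was not tested. Dnaja1 has 41.2% GC, Dnajb4 42% and Dnajb9 40.6%, while Dnajb1 has 52.7% and Dnajb13 50.8%.

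Within numbers 10 to 19, 0 members were higher at an unadjusted p under 0.05 (2.98% of genes were) and Dnajb3 was lower (2.43% of genes were). The median over members was 0.03. Without CON 18, 0 members were higher (5.14% of genes were), Dnaja2, Dnajc2 and Dnajc25 were lower (4.35% of genes were), and 11 genes but no member were called (0.086%). With all 7 libraries the log2 difference was 0.11 ± 0.14 for Dnaja1, 0.26 ± 0.19 for Dnajb1, 0.38 ± 0.26 for Dnajb4, 0.37 ± 0.30 for Dnaja4, 0.52 ± 0.27 for Dnajb13 and -0.06 ± 0.09 for Dnajb9. The difference between the ranges was tested as an interaction. 0 genes passed (smallest limma adjusted p = 0.15), and 11 members (27.5%) were at an unadjusted p under 0.05, against 21.7% of genes. It was -1.33 ± 0.35 for Dnaja1 and -0.82 ± 0.22 for Dnajc21 (numbers 10 to 19 minus numbers 1 to 8; limma adjusted p = 0.151 for each). For Dnajb9 it was -0.66 ± 0.23 and for Dnajb1 -0.58 ± 0.26, with limma adjusted p of 0.166 and 0.215.

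**Figure D4:**
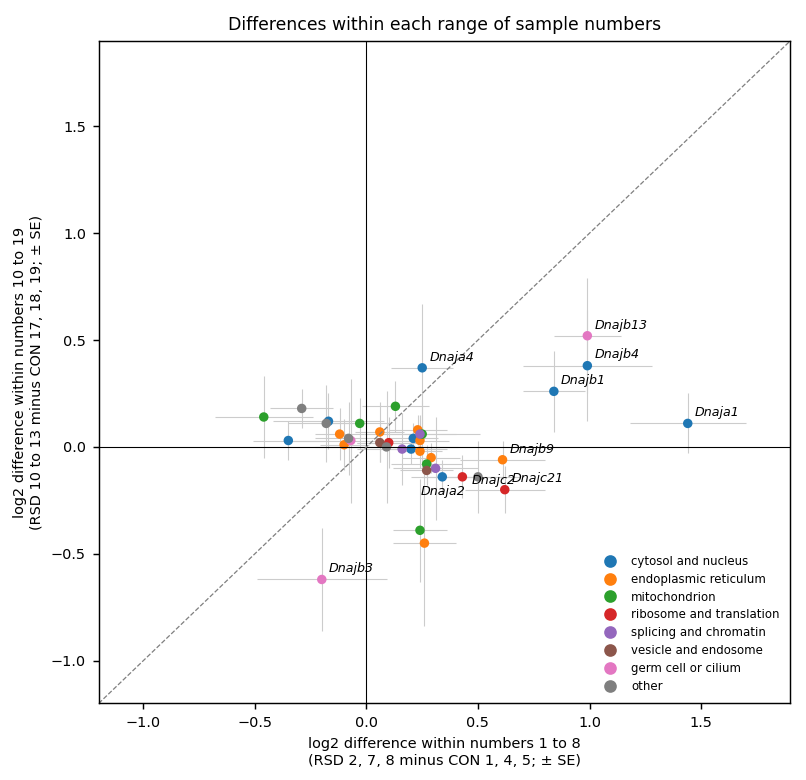
Log2 difference of RSD minus CON within sample numbers 1 to 8 (x axis) against that within numbers 10 to 19 (y axis), with SE as grey bars, for the 40 kept members, coloured by site of action; the dashed line marks equal differences. Dnaja1 lies far below the line (1.44 and 0.11), Dnajb13 (0.99 and 0.52) and Dnajb4 (0.99 and 0.38) lie less far below it, and most other members gather near 0 on the y axis while spread to the right on the x axis, where the median of the 40 members is 0.23.

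All 7 RSD libraries were also set against each control subset. Each subset holds controls of a single number range, while the RSD libraries are of both ranges. Stress and number range therefore cannot be told apart in these comparisons. Against CON 1, 4 and 5, limma called 5 genes (0.0391%), and 2 of them were members. At an unadjusted p under 0.05, 6 of 40 members (15%) were higher (5.07% of genes were) and 0 were lower (4.1% of genes were). Dnaja1 was higher by 1.52 ± 0.20 (log2, limma adjusted p = 0.0369) and Dnajb1 by 1.14 ± 0.18 (limma adjusted p = 0.0444). The other 3 called genes, named after their values were seen, were Hspa8 (0.91 ± 0.14), Hsp90ab1 (1.03 ± 0.15) and Fam46a (0.70 ± 0.10), each at a limma adjusted p of 0.0408. The mean of the controls CON 17 and 19 was itself 2.97-fold that of CON 1, 4 and 5 for Dnaja1 and 2.52-fold for Dnajb1. All RSD libraries exceeded CON 1, 4 and 5 for Dnaja1, Dnaja2, Dnajb1, Dnajb4, Dnajb9 and Dnajb13. These were 6 of 40 members (15%), against 3.95% of genes. Without RSD 8 the calls of Dnaja1 (1.42 ± 0.21, adjusted p = 0.0665) and Dnajb1 (1.18 ± 0.23, adjusted p = 0.0997) were lost, and that of Dnajb13 was gained (1.31 ± 0.19, adjusted p = 0.0222), with 24 genes called (0.188%). Against CON 17, 18 and 19, 0 members were higher at an unadjusted p under 0.05 (2.78% of genes were) and Dnajb3 was lower (1.82% of genes were). Dnaja1 stood at 0.06 ± 0.22 and Dnajb1 at 0.03 ± 0.21. CON 18 had the lowest level of all 4 heat-inducible members among these 3 controls. Without it 0 members were higher (2.07% of genes were) and 0 lower (0.79% of genes were) at an unadjusted p under 0.05, and the differences were -0.05 ± 0.24 for Dnaja1, -0.20 ± 0.20 for Dnajb1 and -0.03 ± 0.15 for Dnaja4. Both subsets use the same RSD libraries, so their results are not independent of each other.

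The summed HSP70 and HSP90 lists showed the same division of controls, and other lists did so little or not at all. HSP70 and HSP110 genes summed to 30303 to 38279 normalized reads in CON 1, 4 and 5, 79546 in CON 18 and 117086 to 124010 in CON 17 and 19. For HSP90 and its co-chaperones these were 20577 to 22712, 29798 and 40396 to 40628. For nucleotide exchange factors they were 3071 to 3247, 3263 and 3270 to 3476. For endoplasmic reticulum stress they were 33588 to 35206, 31722 and 35035 to 35893. Of 15 HSP70 and HSP110 genes 12 had a positive log2 difference, 1 of them (Hspa8) at an unadjusted p under 0.05, and the median was 0.21 against 0.01 over all genes. Hspa1b had 11965, 12465 and 14953 normalized reads in RSD 2, 7 and 8 and 30799, 34740, 29962 and 44303 in RSD 10 to 13. In CON 1, 4 and 5 it had 5274, 1274 and 1452, and in CON 17, 18 and 19 it had 31994, 20618 and 34505. Unlike Dnaja1, it was lower in RSD 2, 7 and 8 than in CON 17, 18 and 19, and the log2 difference of RSD and CON was 1.55 ± 0.85 (limma adjusted p = 0.821). Hspa1a, a near-identical copy with which it can share reads, stood at 1.44 ± 0.81.

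Hspa8 had 17361 to 30937 normalized reads in RSD (median 25376) and 12385 to 27548 in CON (median 16066), and its log2 difference was 0.48 ± 0.20. Hspa5 had 10501 to 16152 in RSD (median 13572) and 7902 to 16364 in CON (median 10028), a difference of 0.28 ± 0.16, and Hspa9 of mitochondria had 0.14 ± 0.09. Hsph1, an HSP110 that exchanges the nucleotide of HSP70, was at 1.38 ± 0.73 and Hsp90aa1, the inducible HSP90, at 0.81 ± 0.38. The 11 HSP90 genes and co-chaperones had 8 positive members and a median of 0.10, with Hsp90ab1 and Chordc1 higher at an unadjusted p under 0.05. Of 9 kept nucleotide exchange factors 5 were positive, with Bag4 higher at 0.22 ± 0.08 (limma adjusted p = 0.821). The heat shock factor genes Hsf1 (-0.15 ± 0.12) and Hsf2 (0.21 ± 0.11) and 5 J-domain genes of other names, with a median of 0.01, had no member at an unadjusted p under 0.05. Of 14 genes of endoplasmic reticulum stress 9 were positive, with a median of 0.05 and 0 at an unadjusted p under 0.05.

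**Figure D5:**
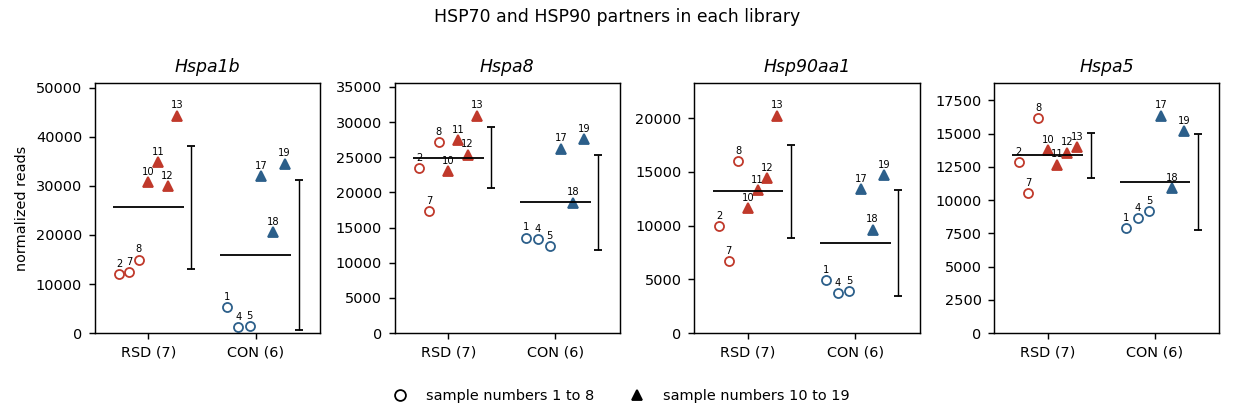
Normalized reads (y axis, linear, from 0) of 4 partner genes in each RSD library (left, red) and each CON library (right, blue), with sample numbers, group means and bars of 1 SD; open circles are numbers 1 to 8 and triangles numbers 10 to 19. CON 1, 4 and 5 lie below all other libraries for all 4 genes, and for Hspa1b RSD 2, 7 and 8 lie between them and CON 17, 18 and 19.

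Other lists also moved with sample number. The 10 early response genes, among them Fos and Atf3, summed to 91002 to 125552 normalized reads in RSD 2, 7 and 8 and 146125 to 176801 in RSD 10 to 13. They summed to 97570 to 123991 in CON 1, 4 and 5, 154140 and 181046 in CON 17 and 19 and 135273 in CON 18. The early response sums of RSD 2, 7 and 8 and of CON 1, 4 and 5 overlapped. The 7 neutrophil markers, 5 of which passed the filter on low counts, summed to 785 to 1195 in RSD 2, 7 and 8, 21.1 to 138.2 in RSD 10 to 13, 181.5 to 743.9 in CON 1, 4 and 5 and 11.6 to 47.3 in CON 17, 18 and 19. The part of these genes in the DNAJ values was not tested.

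Across the 7 libraries of numbers 10 to 19, Dnajb1 followed Hspa1b and Dnaja1 followed Hspa8. No value over all 13 libraries is given, since CON 1, 4 and 5 stood apart from the rest. Of 5 pairs, Hspa1b and Dnajb1 had a Pearson r of 0.98 and a Spearman rho of 0.96 on the log2 scale (exact permutation p = 0.00119 and 0.00278, adjusted over the pairs 0.00265 and 0.00463). Hspa8 and Dnaja1 had 0.92 and 1.00 (exact permutation p = 0.000397 for each, adjusted 0.00198), and Dnajb1 and Dnaja1 had 0.89 and 0.96 (exact permutation p = 0.00159 and 0.00278, adjusted 0.00265 and 0.00463). Without the 2 libraries farthest from the median, RSD 13 and CON 18 for each of these pairs, r was 0.92, 0.97 and 0.88. Without CON 18 and the 2 libraries then farthest, r was 0.92, 0.98 and 0.79 for the same pairs. In the endoplasmic reticulum, Hspa5 and Dnajb9 had an r of -0.20 and a rho of 0.00 (exact permutation p = 0.679 and 1, adjusted 0.706 and 1), and Hspa5 and Dnajc3 had 0.13 and 0.07 (exact permutation p = 0.706 and 0.906, adjusted 0.706 and 1). These 2 values of r varied with the libraries used. For Hspa5 and Dnajb9 r was 0.62 without CON 17 and 18, 0.14 without CON 18 alone and 0.43 without CON 17, CON 18 and RSD 11. For Hspa5 and Dnajc3 it was 0.74, 0.47 and 0.24 under the same removals.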

How the data were processed

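RNA of sorted microglia from 13 samples was sequenced after ribosomal RNA removal with the Ovation SoLo kit, per the labels' protocols. The submitters' processing notes name STAR, DESeq2 and the build mm10, with versions, read counter, annotation and strand use not given in the sources used here. Values deposited by the authors are a signal per gene and library, each a count of reads over the library's size factor. 100% of values were whole multiples of 1 read within 0.01 reads, so reads were recovered. Between any pair of libraries the chi-square was at least 4.36 per degree of freedom, so all 13 were kept as separate. No molecular identifiers are named, so PCR copies may count as reads.

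Genes were kept by edgeR's filterByExpr (minimum count 10, minimum total 15), which left 12496. The test was limma 3.58.1 on log2(value + 1) with trend and robust variance, two-sided, with Benjamini-Hochberg adjustment over all of them and a threshold of 0.05; log2(value + 1) understates changes of low genes. Alternatives were edgeR 4.0.16 and DESeq2 1.42.0 on the recovered reads and limma-voom with sample quality weights, called limma-voom below (R 4.3.3). Other scalings, pseudocounts and filters, and sets of libraries were further alternatives. The limma step was tested on simulated data. Coordinates, overlaps and exon lengths come from GENCODE M21 (GRCm38), and promoters from RefSeq (GRCm38.p6). Values in every library or as range and median are given for the 6 members of smallest p in each direction, heat-inducible and unfolded protein response members, and the 2 highest per kilobase; other members are given by their log2 difference, partner genes are named from fixed lists, and the genes overlapping a member were named after its values were seen. The members and lists were chosen with earlier results of these data known.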

Additional observations from a re-analysis of the deposited data

Results flagged for a closer look

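A single library stood far from the others of its group for 15 of 80 combinations of a member and a group, by the ratio of its gap to the group's range. Chance alone flags about 1 in 20 groups, and libraries that stand apart over all genes add to this. RSD 8 gave 9 of them, CON 18 gave 5 and CON 1 gave 1.

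RSD 8 was the highest RSD library for Dnajc1, a co-chaperone of the endoplasmic reticulum (1534 normalized reads, against 1078 to 1178 in the other RSD libraries), and for the endosomal Dnajc13 (4766 against 3421 to 3917). It was also the highest for the ribosomal members Dnajc2 (936.4 against 481.5 to 573) and Dnajc21 (462.9 against 217.8 to 319.6). The same held for Dnajc7 (2587 against 1825 to 1986), the spliceosomal Dnajc8 (919.4 against 610.8 to 689.1), Dnajc25 (318.2 against 162.8 to 215.1) and Dnajb11 (734.2 against 515.7 to 600.9). It was the lowest for Dnajb2, a member with ubiquitin-binding motifs (68.1 against 126.6 to 150.8).

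CON 18 was the highest CON library for Dnajb14 (992.8 against 321 to 340.5), Dnajc28 (845.2 against 371 to 418.6), Dnajc17 (108.2 against 53.2 to 68.3) and Dnajc4 (113.8 against 72.8 to 82.6), and the lowest for Dnajb7 (27 against 51.2 to 64.7). CON 1 was the highest CON library for Dnajb11 (590.4 against 495 to 523.2).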

How the results depend on the processing

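Of 495 alternative values for 16 named members, 456 kept their direction and side of the threshold, 4 passed it and 35 reversed; 5 members had no reversal. Genes called were 0, but 2 in DESeq2 (Snord104 and Tex11, named after their values were seen), 5 against CON 1, 4 and 5, 24 there without RSD 8, 78 within numbers 1 to 8 without RSD 8 and 11 within numbers 10 to 19 without CON 18. The ranges and CON 1, 4 and 5 without RSD 8 or CON 18, and CON 17 and 19 alone, were chosen after seeing the data. Members higher at an unadjusted p under 0.05 were 4, but 2 in edgeR, 3 in DESeq2, with TMM scaling, with a pseudocount of 10 and with no filter, 5 in limma-voom, 6 against CON 1, 4 and 5 with or without RSD 8, 1 without CON 18 and RSD 8, 11 within numbers 1 to 8 (7 without RSD 8) and 0 within numbers 10 to 19 with or without CON 18 and against CON 17 and 19 with or without CON 18; leaving out 1 library gave 1 to 6. Members lower were 1, but 0 in limma-voom, with a mean of at least 50, against CON 1, 4 and 5 with or without RSD 8, against CON 17 and 19 and within numbers 1 to 8 without RSD 8, and 3 within numbers 10 to 19 without CON 18; leaving out 1 library gave 0 to 1. Over members the median was 0.233 for numbers 1 to 8 and, without CON 18, -0.026 for numbers 10 to 19. Against CON 1, 4 and 5, Dnaja1 (1.52) and Dnajb1 (1.14) passed, and without RSD 8 Dnajb13 passed (1.31), also within numbers 1 to 8 (1.09).

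Reversals were as follows, and the cause was not tested. Against CON 17 and 19: Dnaja1 -0.052, Dnajb1 -0.204, Dnaja4 -0.035, Dnajb9 -0.054, Dnajc28 0.054 and Dnajb14 0.182. Against CON 17, 18 and 19: Dnajb9 -0.088 and Dnajc16 0.071. Within numbers 10 to 19: Dnajb5 0.032, Dnajc30 0.139, Dnajc16 0.183, Dnajb9 -0.058, Dnajc3 -0.047 and Dnajc10 -0.021; there without CON 18, Dnaja4 -0.028, Dnajb14 0.088, Dnajc16 0.104, Dnajb9 -0.024, Dnajc3 -0.043 and Dnajc10 -0.055. Dnajc28 and Dnajb14 stood at 0.030 and 0.046 in limma-voom, 0.089 and 0.154 without CON 18, 0.077 and 0.095 without CON 18 and RSD 8, 0.238 and 0.261 within numbers 1 to 8 (0.263 and 0.145 without RSD 8) and 0.113 and 0.136 against CON 1, 4 and 5 (0.100 and 0.076 without RSD 8). Dnajc16 was 0.037 without RSD 8. Leaving out 1 library gave -0.148 to 0.089 for Dnajc28, -0.171 to 0.154 for Dnajb14 and -0.090 to 0.037 for Dnajc16. The r of Hspa5 and Dnajb9 was 0.14 without CON 18.

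The all-gene median stayed within 0.011 of 0 in every setting. No paired analysis was possible because RSD and CON share no sample numbers. The median standard error over members was 0.12, and for Dnajc6, with a few reads a library, a difference could not be assessed at this depth.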
